A study of Mus musculus with 24 samples.

Results

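Expression of BDNF, the related ligand neurotrophin-3 and 5 of their receptors was followed in the striatum of Q175 mice, with and without deletion of Tyrobp. The 7 genes Bdnf, Ntf3, Ntrk2, Ntrk3, Ngfr, Sort1 and Sorcs2 were taken by symbol from the 54532 genes of the deposited read count table, and all 7 were present. Read counts came from 24 mice, 1 library per animal, in 4 groups of 6 with 3 males and 3 females each, and replicates 1 to 3 of each group were male. WT mice carried neither change, TyrobpKO mice lacked Tyrobp, Q175 mice were heterozygous for the Q175 allele, and Q175_TyrobpKO mice were heterozygous for Q175 and lacked Tyrobp. All were labelled C57BL/6, and their age was not given in the labels. Q175 is a knock-in allele in which the mouse huntingtin gene holds a long CAG repeat, and Tyrobp encodes a signalling adaptor of microglia. The animal numbers of both Tyrobp-deleted groups share 1 prefix letter, and all Q175 animals share another that is found in 1 WT animal only (replicate 3), so a colony difference, if the prefix marks one, cannot be told apart from genotype in the contrasts other than Q175_TyrobpKO against TyrobpKO.

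BDNF and neurotrophin-3 are secreted growth factors that bind receptor tyrosine kinases of the Trk family, TrkB (Ntrk2) for BDNF and TrkC (Ntrk3) for neurotrophin-3. Their uncleaved precursors instead bind p75 (Ngfr) together with a sortilin-family receptor such as sortilin (Sort1) or SorCS2 (Sorcs2). The striatum makes little Bdnf RNA of its own: most striatal BDNF protein arrives in the axons of cortical neurons, and striatal projection neurons depend on it. Cortical tissue left on a striatal dissection therefore carries Bdnf RNA into the sample. Slc17a7, the vesicular glutamate transporter of cortical excitatory neurons, was used to follow such tissue.

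Total counts were 25.5 to 34.6 M reads per library, and 19667 genes passed the filter on low counts. Tyrobp was at 7.88 CPM (counts per megacount of the library, TMM-scaled) in WT and 8.68 CPM in Q175 against 0.341 CPM in TyrobpKO and 0.260 CPM in Q175_TyrobpKO, as the labels say. Htt fell with the Q175 allele by 0.46 on the log2 scale in Q175 against WT (edgeR adjusted p = 3.02e-06), from 226 to 164 CPM. Striatal projection neuron markers were abundant in every library, at a summed 5703 to 15362 CPM over 15 genes, and none of the 15 was at 0 throughout a group. Cortical content was far less even, and 12 of 16 other cortical markers rose with Slc17a7 (median slope 0.47). Slc17a7 ranged 102.8-fold, from 5.88 CPM in Q175_TyrobpKO replicate 6 to 605 CPM in TyrobpKO replicate 2. Another 4 libraries were under 100 CPM, namely WT replicate 4 (25.7 CPM) and Q175 replicates 2 (19.7 CPM), 3 (8.49 CPM) and 6 (81.8 CPM).

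The members spanned a wide range of levels. Scaled by gene length, their levels in WT were 73.4 ± 2.99 CPM per kb for Sort1 and 33.1 ± 2.64 CPM per kb for Ntrk2 (SD, n = 6). Sorcs2 (13.01 ± 1.57 CPM per kb) and Ntrk3 (9.88 ± 1.104 CPM per kb) followed, and over all 24 libraries these neighbours differed by less than the sum of their SDs. Ngfr (1.31 ± 0.0572 CPM per kb), Bdnf (0.717 ± 0.493 CPM per kb) and Ntf3 (0.0524 ± 0.0714 CPM per kb) were lowest, and Ngfr and Bdnf were again within their combined SDs in TyrobpKO. The order of the more abundant members depends on the deposited gene length used to scale them. Unscaled, mean WT levels were 639 CPM for Ntrk2, 556 CPM for Sort1, 298 CPM for Ntrk3 and 115 CPM for Sorcs2. All libraries together held 3415 reads of Bdnf, 2501 of Ngfr and 115 of Ntf3, against 64355 (Sorcs2) to 405319 (Ntrk2) of the other members. The counts are per gene and do not separate full-length TrkB and TrkC from their shorter forms without the kinase, and GENCODE M21 lists 7 coding transcripts of Ntrk2 and 6 of Ntrk3.

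**Figure D1:**
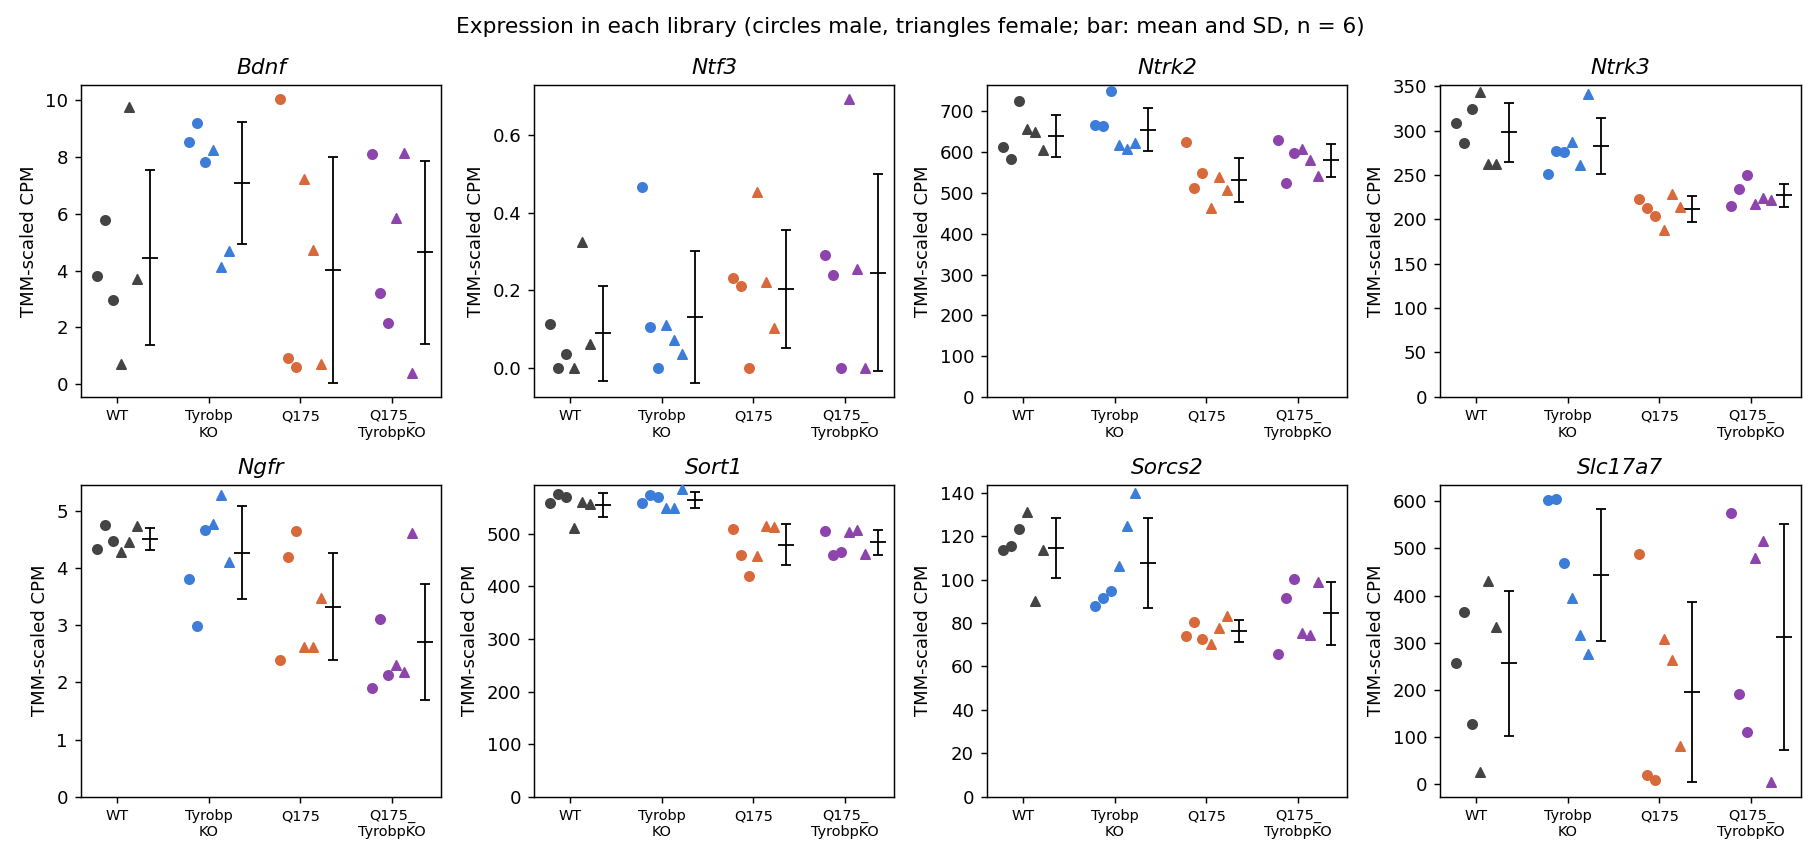
TMM-scaled CPM (vertical axes, each from 0) of the 7 genes and of Slc17a7 in every library, by genotype (horizontal axis). Circles are males and triangles are females, and the bars give the mean and SD of 6 libraries. Ntrk3 in Q175 lies between 188 and 228 CPM, under every WT library, whereas Bdnf and Slc17a7 spread widely within each genotype.

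Bdnf (ENSMUSG00000048482, chr2:109674700-109727007, plus strand) is read from several promoters, and GENCODE M21 lists 11 coding transcripts with 9 distinct starts. RefSeq promoter windows of 300 bases (build GRCm38.p6, 250 bases before to 50 after a start) were found for 4 of the 7 members. Windows were searched on both strands for the cyclic AMP response element half-site TGACG, which binds CREB, and for the GC box core GGGCGG, a site of Sp1-type factors. Neither motif contains the other. TGACG was in 1 of 7 Bdnf windows, beside 20.8% of all 32851 windows, and in none of the windows of the other 3. GGGCGG was in 2 of 7 Bdnf windows, in both of Ntf3 and in the single windows of Ntrk2 and Ngfr, beside 35.7% of all windows. A match describes letters only. The Bdnf window with the CRE half-site (chr2:109692186-109692485, plus strand) and the windows of Ngfr (chr11:95587649-95587948, minus strand) and Ntrk2 (chr13:58806319-58806618, plus strand) are printed, because Bdnf and Ngfr followed cortical content in opposite directions and Ntrk2 had no called slope on it. Capitals mark the half-site in Bdnf, in its reverse complement, and the GC box core on either strand in the other windows.
Bdnf: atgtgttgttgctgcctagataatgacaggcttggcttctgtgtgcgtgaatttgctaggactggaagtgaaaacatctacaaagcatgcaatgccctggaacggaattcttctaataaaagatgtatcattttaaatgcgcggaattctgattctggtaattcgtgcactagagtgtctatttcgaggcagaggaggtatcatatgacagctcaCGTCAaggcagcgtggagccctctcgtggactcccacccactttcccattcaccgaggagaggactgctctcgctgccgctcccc
Ngfr: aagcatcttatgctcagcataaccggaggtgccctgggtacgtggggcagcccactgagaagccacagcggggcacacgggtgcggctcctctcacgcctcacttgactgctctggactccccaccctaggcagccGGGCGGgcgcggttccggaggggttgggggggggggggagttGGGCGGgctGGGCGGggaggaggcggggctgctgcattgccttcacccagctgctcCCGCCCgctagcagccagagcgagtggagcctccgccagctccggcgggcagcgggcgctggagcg
Ntrk2: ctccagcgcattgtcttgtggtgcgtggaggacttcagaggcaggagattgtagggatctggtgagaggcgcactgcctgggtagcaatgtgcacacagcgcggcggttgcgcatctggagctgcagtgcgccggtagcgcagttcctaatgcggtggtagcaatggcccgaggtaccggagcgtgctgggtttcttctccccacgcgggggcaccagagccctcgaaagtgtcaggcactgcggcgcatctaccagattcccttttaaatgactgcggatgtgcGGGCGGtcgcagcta

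Bdnf did not differ detectably between genotypes and followed cortical content closely. In WT it ranged from 0.716 CPM over a median of 3.76 to 9.75 CPM, and in Q175 from 0.599 CPM over a median of 2.82 to 10.03 CPM. The lowest WT library and the 3 lowest Q175 libraries were the ones under 100 CPM of Slc17a7, and the groups overlapped throughout. In TyrobpKO, Bdnf ranged from 4.11 CPM over a median of 8.03 to 9.20 CPM, and in Q175_TyrobpKO from 0.400 CPM over a median of 4.52 to 8.13 CPM. Here again the lowest library, Q175_TyrobpKO replicate 6, had the least Slc17a7 of all. The log2 difference for Q175 against WT was -0.15 ± 0.70 (SE), with a 95% interval from -1.61 to 1.30 and an edgeR adjusted p of 0.933. For Q175_TyrobpKO against TyrobpKO it was -0.60 ± 0.69, with an interval from -2.04 to 0.83 and an edgeR adjusted p of 0.713. Intervals this wide do not show that Bdnf was the same.

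Across the 24 libraries, log2 Bdnf and log2 Slc17a7 had a Pearson's r of 0.949 and a Spearman's rho of 0.923, each with a 2-sided permutation p of 1e-05, the smallest that the permutations can give (adjusted p = 7e-05 over 7 genes). Without the 2 libraries farthest from the median, r was 0.933. Within the 4 genotypes r was 0.879 in TyrobpKO, 0.903 in Q175, 0.953 in WT and 0.992 in Q175_TyrobpKO, with 6 libraries each. The exact permutation p of these 4 ranged from 0.00556 to 0.0361, and after adjustment over 28 relations WT and Q175_TyrobpKO were at 0.0389 and the other two at 0.0778 and 0.112. For Spearman's rho the adjusted permutation p was 0.0667 in WT, Q175 and Q175_TyrobpKO and 0.104 in TyrobpKO. Per library, Bdnf reads amounted to 0.886% to 2.78% of Slc17a7 reads in 21 libraries. The 3 libraries poorest in Slc17a7 stood above, at 4.66% (Q175 replicate 2), 7.06% (Q175 replicate 3) and 6.79% (Q175_TyrobpKO replicate 6). In the fit with genotype and sex, Bdnf rose by 0.74 ± 0.06 on the log2 scale per log2 unit of Slc17a7 (edgeR adjusted p = 1.86e-10).

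With Slc17a7 as a covariate, the error of the Bdnf contrast shrank to 0.23. The log2 difference for Q175 against WT was then 0.21 ± 0.23, with a 95% interval from -0.26 to 0.68 and an edgeR adjusted p of 0.630. That for Q175_TyrobpKO against TyrobpKO was -0.13 ± 0.22, with an interval from -0.58 to 0.32 and an edgeR adjusted p of 0.815. The difference between TyrobpKO and WT was 0.66 ± 0.69 without the covariate and 0.06 ± 0.22 with it. That between Q175_TyrobpKO and Q175 was 0.21 ± 0.70 without it and -0.28 ± 0.23 with it. Slc17a7 itself did not differ detectably by genotype, at a log2 difference of -0.40 ± 0.87 for Q175 against WT (edgeR adjusted p = 0.846). It lies 14.7 Mb from Tyrobp on chromosome 7.

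**Figure D2:**
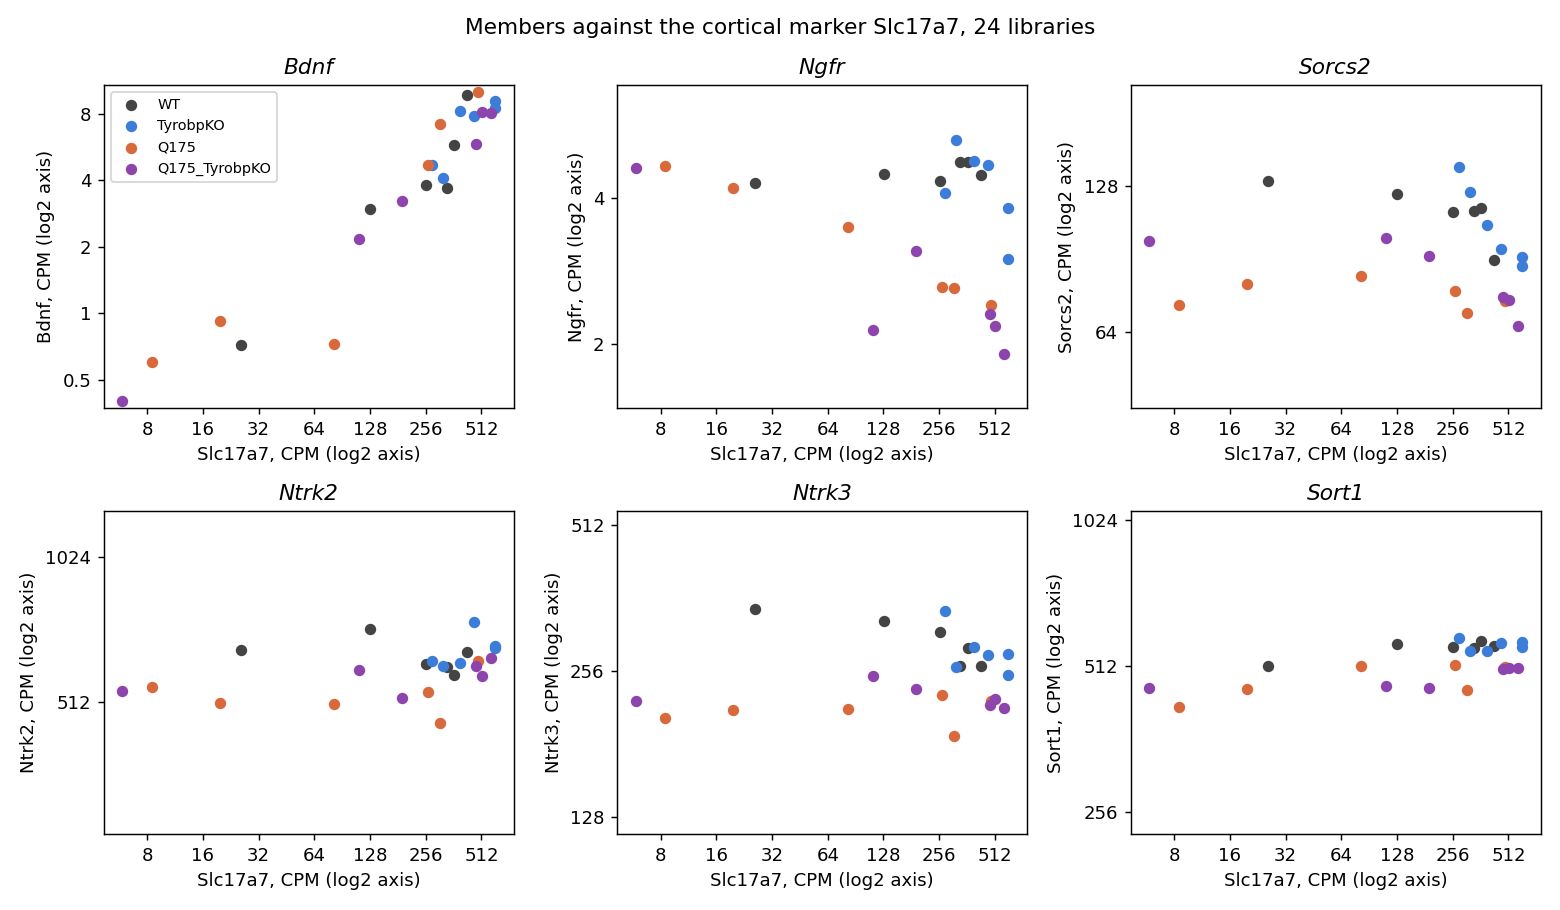
CPM of 6 members (vertical axes, log2) against CPM of Slc17a7 (horizontal axes, log2), 1 point per library, coloured by genotype. Bdnf climbs with Slc17a7 in every genotype, Ngfr falls with it among the Q175 carriers, and in Ntrk3 the Q175 carriers, at 188 to 250 CPM, lie below the other animals throughout.

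Ntf3 (ENSMUSG00000049107, chr6:126101412-126166910, minus strand), the ligand of TrkC, was at the limit of detection. It had 115 reads over all libraries, split by genotype as 15 (WT), 25 (TyrobpKO), 34 (Q175) and 41 (Q175_TyrobpKO). In WT it ranged from 0 over a median of 0.0502 to 0.324 CPM, and in Q175_TyrobpKO from 0 over a median of 0.247 to 0.691 CPM. There were 6 libraries with no read, which allows a level of up to 0.0998 to 0.116 CPM in them (3 reads, counting error only). Ntf3 did not pass the filter and was left out of the main tests. In a fit without the filter, Q175 against WT gave a log2 difference of 1.15 ± 0.92 (edgeR adjusted p = 0.627) and the slope on Slc17a7 was 0.70 ± 0.19 (edgeR adjusted p = 0.0156). Its r with Slc17a7 was 0.507 over 24 libraries (rho 0.535, permutation p = 0.0105 and 0.00734, adjusted p = 0.0245 and 0.0257 over 7 genes). Without the 2 farthest libraries r was 0.333, and within genotypes it was 0.560 (WT), 0.496 (TyrobpKO), 0.762 (Q175) and 0.800 (Q175_TyrobpKO), with adjusted p over 28 relations from 0.124 to 0.424 (exact permutation).

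Of the 6 members tested, 4 were called lower in Q175 than in WT, at an edgeR adjusted p under 0.05, and none higher. Ntrk2, Ntrk3, Sort1 and Sorcs2 fell, beside 9.63% of all genes called in that contrast and 5.47% called lower. In Q175_TyrobpKO against TyrobpKO, 3 members fell (Ntrk3, Ngfr and Sort1), beside 5.86% of all genes called and 3.08% called lower. Averaged over both Tyrobp genotypes, all 5 receptors fell, beside 18% of genes called and 9.17% called lower. The averaged comparison uses the libraries of Q175 against WT and of Q175_TyrobpKO against TyrobpKO and is not independent of them. Those separate comparisons share no library with each other, but came from 1 fit with a shared estimate of the spread. In fits of 1 sex, with 3 animals per genotype, the 4 calls of Q175 against WT were lost in females, and the 3 of Q175_TyrobpKO against TyrobpKO were lost in either sex. Over all genes, calls in Q175 against WT went from 1893 in the main fit to 187 in females. Those in Q175_TyrobpKO against TyrobpKO went from 1153 to 104 in males and 290 in females.

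Both Trk receptors were called lower in Q175 than in WT, and the difference between their falls was not tested. Ntrk3 (ENSMUSG00000059146, chr7:78175959-78738012, minus strand) encodes TrkC. It was at 263 CPM, a median of 297 and 344 CPM in WT against 188, 213 and 228 CPM in Q175 (lowest, median and highest library). It was at 251, 277 and 341 CPM in TyrobpKO against 215, 223 and 250 CPM in Q175_TyrobpKO. No Q175 carrier reached the lowest library of its control group, and the 12 carriers did not overlap the 12 other animals either, which held in the lower direction for 2.39%, 2.27% and 0.722% of all genes in the 3 comparisons. The log2 difference was -0.49 ± 0.07 for Q175 against WT (edgeR adjusted p = 4.01e-05) and -0.31 ± 0.07 for Q175_TyrobpKO against TyrobpKO (edgeR adjusted p = 0.00829). Each call held when any 1 library was left out. The interaction of the 2 alleles was 0.18 ± 0.10 and was not called (edgeR adjusted p = 0.999).

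Ntrk2 (ENSMUSG00000055254, chr13:58806569-59133970, plus strand) encodes TrkB, whose kinase-free form is made in quantity by astrocytes. It was at 583, 632 and 726 CPM in WT against 464, 525 and 624 CPM in Q175. Of the 6 Q175 libraries, 5 were under all WT libraries, and replicate 1 was within their range. In TyrobpKO it was at 609, 643 and 751 CPM against 523, 589 and 631 CPM in Q175_TyrobpKO, with 5 of 6 below. The log2 difference was -0.27 ± 0.07 in the first contrast (edgeR adjusted p = 0.00817) and -0.17 ± 0.07 in the second (edgeR adjusted p = 0.130). The interaction was not called (0.09 ± 0.09). Q175_TyrobpKO against Q175 gave 0.13 ± 0.07 (edgeR adjusted p = 0.830). The Q175 call was lost in males alone (-0.19, edgeR adjusted p = 0.372), in females alone (-0.34, edgeR adjusted p = 0.0635) and without the 5 libraries poor in Slc17a7, at -0.21 and an edgeR adjusted p of 0.171.

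Markers of some other cell types moved with the same groups, and not every list computed is given here. Of all genes, 5.47% were called lower and 4.15% higher in Q175 against WT. In Q175_TyrobpKO against TyrobpKO these shares were 3.08% and 2.78%. Of 10 astrocyte markers, 2 fell (20%) and 1 rose in Q175 against WT, and 3 fell (30%) in Q175_TyrobpKO against TyrobpKO. Their sum was 4440 to 4944 CPM in WT against 3640 to 4315 in Q175, and 4659 to 5072 in TyrobpKO against 3762 to 4185 in Q175_TyrobpKO, and none was at 0. Of 15 markers of striatal projection neurons, 14 fell in the first contrast (93.3%) and 8 in the second (53.3%), with median log2 differences of -0.76 and -0.48. Their sum was 9736 to 15362 CPM in WT against 6560 to 8779 in Q175, and 9096 to 14687 in TyrobpKO against 5703 to 9042 in Q175_TyrobpKO. Of 8 choroid plexus markers, 3 rose (37.5%) in Q175 against WT, with sums of 39.0 to 75.4 CPM in WT and 37.1 to 4156 CPM in Q175. Of 11 vascular and leptomeningeal markers, 2 fell (18.2%) in Q175_TyrobpKO against TyrobpKO, namely Rgs5 and Pecam1. Their sums were 294 to 357 CPM in TyrobpKO and 270 to 336 CPM in Q175_TyrobpKO over all 11 markers. The part of these markers in the receptor changes was not tested, and in whole tissue fewer cells of a type and less RNA per cell cannot be told apart.

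Sort1 (ENSMUSG00000068747, chr3:108284082-108361511, plus strand), the sorting receptor that joins p75 and also steers BDNF within the cell, fell on both Tyrobp backgrounds. It was at 512, 560 and 575 CPM in WT against 421, 484 and 515 CPM in Q175. The groups overlapped through WT replicate 4, at 512 CPM. In TyrobpKO it was at 549, 565 and 586 CPM against 460, 485 and 508 CPM in Q175_TyrobpKO, and these groups did not overlap. The log2 difference was -0.21 ± 0.05 (edgeR adjusted p = 0.00823) in the first contrast and -0.22 ± 0.05 (edgeR adjusted p = 0.00989) in the second, with an interaction of -0.01 ± 0.07 and a 95% interval from -0.16 to 0.15. Without the 5 libraries poor in Slc17a7 the first call was lost at -0.19 and an edgeR adjusted p of 0.0598. Sort1 rose by 0.03 ± 0.01 per log2 unit of Slc17a7 (edgeR adjusted p = 0.0408), but that call was lost in 20 of 24 fits that left out 1 library and in 5 of 8 other settings, with an edgeR adjusted p up to 0.651. With 1 library left out, it was kept without Q175 replicates 4 or 6 or Q175_TyrobpKO replicates 2 or 6.

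Sorcs2 (ENSMUSG00000029093, chr5:36017180-36398139, minus strand), the other co-receptor of p75 for precursors, had the largest fitted fall of the 4 members called in Q175 against WT. It was at 90.0, 115 and 131 CPM in WT against 70.2, 76.0 and 83.4 CPM in Q175, and the groups did not overlap. It was at 87.7, 101 and 140 CPM in TyrobpKO against 65.9, 83.6 and 100 CPM in Q175_TyrobpKO, which did overlap. The log2 difference was -0.59 ± 0.11 (edgeR adjusted p = 0.00155) in the first contrast and -0.34 ± 0.11 (edgeR adjusted p = 0.0833) in the second, and the interaction was not called (0.24 ± 0.16). With Slc17a7 as a covariate, the second became -0.43 ± 0.10 (edgeR adjusted p = 0.00907), and DESeq2 called it without the covariate (adjusted p = 0.0354). It was also called without Q175_TyrobpKO replicate 3 (edgeR adjusted p = 0.0384). In fits of 1 sex it was not called, at -0.09 ± 0.11 in males (edgeR adjusted p = 0.832) and -0.58 ± 0.15 in females (edgeR adjusted p = 0.0838).

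Sorcs2 lies 1.105 Mb from Htt, so that a Q175 carrier may hold sequence linked to the knocked-in allele there. Of 156 other genes tested within 5 Mb of Htt, 13 were called lower and 8 higher in Q175 against WT (13.5% called, 8.33% lower), beside 9.63% and 5.47% of all genes. In Q175_TyrobpKO against TyrobpKO, 2 were called lower and 5 higher (4.49% called), beside 5.86% of all genes. The part of linked sequence in the change of Sorcs2 was not tested. Ntrk3 is on the chromosome of Tyrobp, 47.8 Mb away from it.

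Ngfr (ENSMUSG00000000120, chr11:95568818-95587735, minus strand) encodes p75, which in the adult basal forebrain is known chiefly from cholinergic neurons. It was low, at 4.30, 4.47 and 4.76 CPM in WT against 2.40, 3.05 and 4.66 CPM in Q175. It was at 2.995, 4.39 and 5.29 CPM in TyrobpKO against 1.91, 2.24 and 4.61 CPM in Q175_TyrobpKO. Of the carriers, 5 of 6 in Q175 and 4 of 6 in Q175_TyrobpKO lay under every library of their control group. In each, the highest library was the one with the least Slc17a7, and it lay within the control range. The log2 difference was -0.43 ± 0.19 (edgeR adjusted p = 0.176) for Q175 against WT and -0.66 ± 0.20 (edgeR adjusted p = 0.0438) for Q175_TyrobpKO against TyrobpKO. The second call was lost in 16 of 24 fits that left out 1 library, with an edgeR adjusted p up to 0.118, and in a fit of the compared groups alone (edgeR adjusted p = 0.0517). It was kept without TyrobpKO replicate 2, Q175 replicates 1 to 5 or Q175_TyrobpKO replicates 2 or 6, each left out alone.

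Ngfr ran against cortical content, falling by 0.14 ± 0.03 per log2 unit of Slc17a7 (edgeR adjusted p = 0.00103). That call was lost in males alone (-0.15, edgeR adjusted p = 0.141), in females alone (-0.12, edgeR adjusted p = 0.0945) and without the 5 libraries poor in Slc17a7 (-0.13, edgeR adjusted p = 0.443). Over 24 libraries pooled, r was -0.333 (rho -0.257, permutation p = 0.111 and 0.225, adjusted p = 0.156 and 0.263) and without the 2 farthest libraries -0.218. Within genotypes it was 0.620 (WT), -0.633 (TyrobpKO), -0.993 (Q175) and -0.880 (Q175_TyrobpKO). The exact permutation p was 0.00278 in Q175 (0.0389 adjusted over 28 relations) and 0.1 in Q175_TyrobpKO, so the relation was not seen in every genotype. For Spearman's rho the adjusted permutation p in Q175 was 0.0667. With Slc17a7 as a covariate, both differences were called, at -0.64 ± 0.15 (edgeR adjusted p = 0.00412) and -0.90 ± 0.15 (edgeR adjusted p = 0.000309). All 7 markers of cholinergic neurons also fell with Slc17a7, with a median slope of -0.12. In Q175 against WT, edgeR and DESeq2 called 0 of the 7, edgeR had 1 at an unadjusted p under 0.05, and 3 were lower with the covariate. Their sum was 126 to 223 CPM in WT and 113 to 203 CPM in Q175, and their part in the result for Ngfr was not tested.

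With Slc17a7 as a covariate, all 5 receptors were called lower in Q175 against WT, beside 12.4% of all genes called and 6.93% called lower. In Q175_TyrobpKO against TyrobpKO, 4 were (Ntrk3, Ngfr, Sort1 and Sorcs2), beside 7.24% of all genes called and 3.95% called lower. The fitted differences of Ntrk2 and Ntrk3 moved by at most 0.02 on the log2 scale. Of the 6 members, 3 had a called slope on Slc17a7, beside 12.5% of all genes: Bdnf and Sort1 rose with it, as did 8.04% of all genes, and Ngfr fell, as did 4.46%. Ntrk2 (0.01 ± 0.01), Ntrk3 (-0.02 ± 0.01) and Sorcs2 (-0.06 ± 0.02, edgeR adjusted p = 0.0566) were not called. Without the 5 libraries poor in Slc17a7 the slopes of Ntrk3 (-0.11, edgeR adjusted p = 0.0351) and Sorcs2 (-0.26, edgeR adjusted p = 4.22e-05) were called. In all, 5 of 8 other settings and 3 of 24 fits without 1 library called the Sorcs2 slope. Within genotypes its r was -0.73 (WT), -0.976 (TyrobpKO), -0.186 (Q175) and -0.763 (Q175_TyrobpKO). The exact permutation p, adjusted over 28 relations, was 0.0389 in TyrobpKO (0.0667 by rho) and 0.0778 to 0.766 elsewhere. For Ntrk3, r was -0.858 in WT (adjusted p = 0.0467, 0.0667 by rho) and -0.624 to 0.173 elsewhere.

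**Figure D3:**
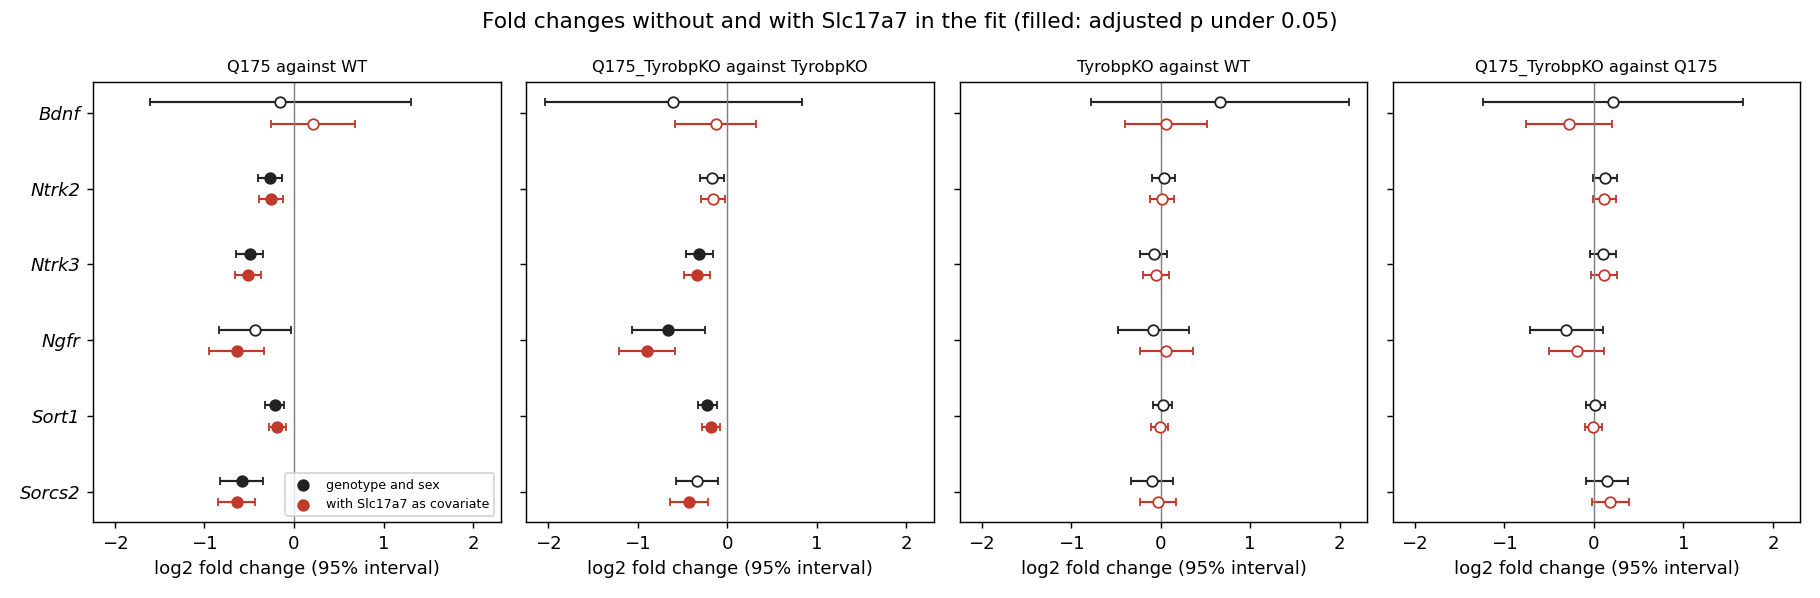
Fitted log2 fold change (horizontal axis) with its 95% interval for 6 members in 4 contrasts, without (black) and with (red) Slc17a7 in the fit, and filled points have an adjusted p under 0.05. The interval of Bdnf narrows with the covariate and includes 0 in all 4 contrasts, and the filled receptor points lie below 0 in both Q175 contrasts.

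Deletion of Tyrobp changed none of the 6 members detectably in the fit of all 24 libraries. In TyrobpKO against WT and in Q175_TyrobpKO against Q175, edgeR called 0 of 6, 0 had an unadjusted p under 0.05 and DESeq2 called 0, beside 0.117% and 0.158% of all genes called by edgeR. The differences ran from -0.10 ± 0.11 (Sorcs2) to 0.66 ± 0.69 (Bdnf) in the first and from -0.31 ± 0.20 (Ngfr) to 0.21 ± 0.70 (Bdnf) in the second. The interaction of Q175 with Tyrobp was called for 0 of 6, as was that of Q175 with sex (0% of all genes in either), with 0 at an unadjusted p under 0.05 and 0 by DESeq2. Over all genes the 2 interactions had 707 and 593 at an unadjusted p under 0.05, and DESeq2 called 3 and 0. In the sex interaction, Sort1 was at 0.11 ± 0.07 and Sorcs2 at -0.19 ± 0.14.

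Of 5 other neurotrophins and receptors tested, 1 was called in Q175 against WT (20%), beside 9.63% of all genes called and 5.47% called lower. This was Sorcs3, a relative of Sorcs2. It fell by 0.47 on the log2 scale, from 37.3 ± 5.63 to 26.9 ± 5.32 CPM (edgeR adjusted p = 0.0129). In Q175_TyrobpKO against TyrobpKO it was at -0.38 ± 0.12 (edgeR adjusted p = 0.0608). Sorcs3 also rose with Slc17a7, by 0.09 ± 0.02 per log2 unit (edgeR adjusted p = 0.000197). Medians of the 5 were -0.33 and -0.07, beside 0.01 and 0.00 over all genes. Of 10 partners and adaptors of p75, Maged1 (NRAGE) rose in both contrasts, by 0.25 ± 0.05 and 0.27 ± 0.05 (edgeR adjusted p = 0.00121 and 0.00103). Bex3 (NADE), another p75-binding protein, rose in the second (0.42 ± 0.11, edgeR adjusted p = 0.0262) and was at 0.24 ± 0.11, not called, in the first. The other 8 were not called. Thus 10% of this list was called in the first contrast and 20% in the second, beside 9.63% and 5.86% of all genes. Of all genes, 4.15% and 2.78% were called higher.

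Of 35 adaptors and kinases that relay Trk signals, 3 fell in Q175 against WT and none rose (8.57%), beside 9.63% of all genes called and 5.47% called lower, and DESeq2 called 4. The 3 were Camk4, a calcium-dependent kinase upstream of CREB (-0.56 ± 0.10, edgeR adjusted p = 0.000394), the GTPase Hras (-0.34 ± 0.08, edgeR adjusted p = 0.00591) and the adaptor Shc2 (-0.25 ± 0.07, edgeR adjusted p = 0.0141). In Q175_TyrobpKO against TyrobpKO, edgeR called Camk4 only, at -0.39 ± 0.10 (edgeR adjusted p = 0.0150), or 2.86% of the list beside 5.86% of all genes, and DESeq2 called 2. These shares are near or under those of all genes called. The list medians were 0.03 and 0.01. Of 10 genes of neurotrophin cleavage and secretion, edgeR and DESeq2 called 0 in the first contrast, with 0 at an unadjusted p under 0.05. In the second, Hap1, which carries BDNF vesicles along axons together with huntingtin, rose by 0.52 ± 0.14 (edgeR adjusted p = 0.0327). It also fell with Slc17a7, by 0.10 per log2 unit. This 1 call is 10% of the list, beside 5.86% of all genes called and 2.78% called higher.

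Among 11 regulators of Bdnf transcription, edgeR called 0 in either contrast, 5 had an unadjusted p under 0.05 in each, and DESeq2 called 1 and 0. Of 18 genes that BDNF signalling induces, 6 fell and none rose in Q175 against WT, and 5 fell and none rose in Q175_TyrobpKO against TyrobpKO. These are 33.3% and 27.8% of the list, beside 5.47% and 3.08% of all genes called lower. The median of the 18 was -0.47 and -0.40. Homer1, a postsynaptic scaffold, had the smallest p and fell from 378 ± 68.7 CPM in WT to 232 ± 31.4 in Q175 and from 327 ± 31.2 in TyrobpKO to 213 ± 14.3 in Q175_TyrobpKO. Its log2 differences were -0.70 ± 0.10 and -0.62 ± 0.10 (edgeR adjusted p = 5.47e-05 and 0.000474). The transcription factor Egr3 fell by 0.54 and 0.42, and Spry2, a feedback inhibitor of receptor tyrosine kinases, fell by 0.46 and 0.38. The other genes called were Egr2, Dusp1 and Vgf in the first contrast and Dusp6 and Egr2 in the second. Most genes of this list also respond to neuronal activity in general, and striatal projection neuron markers fell in the same libraries. Their part in the fall of these genes was not tested.

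**Figure D4:**
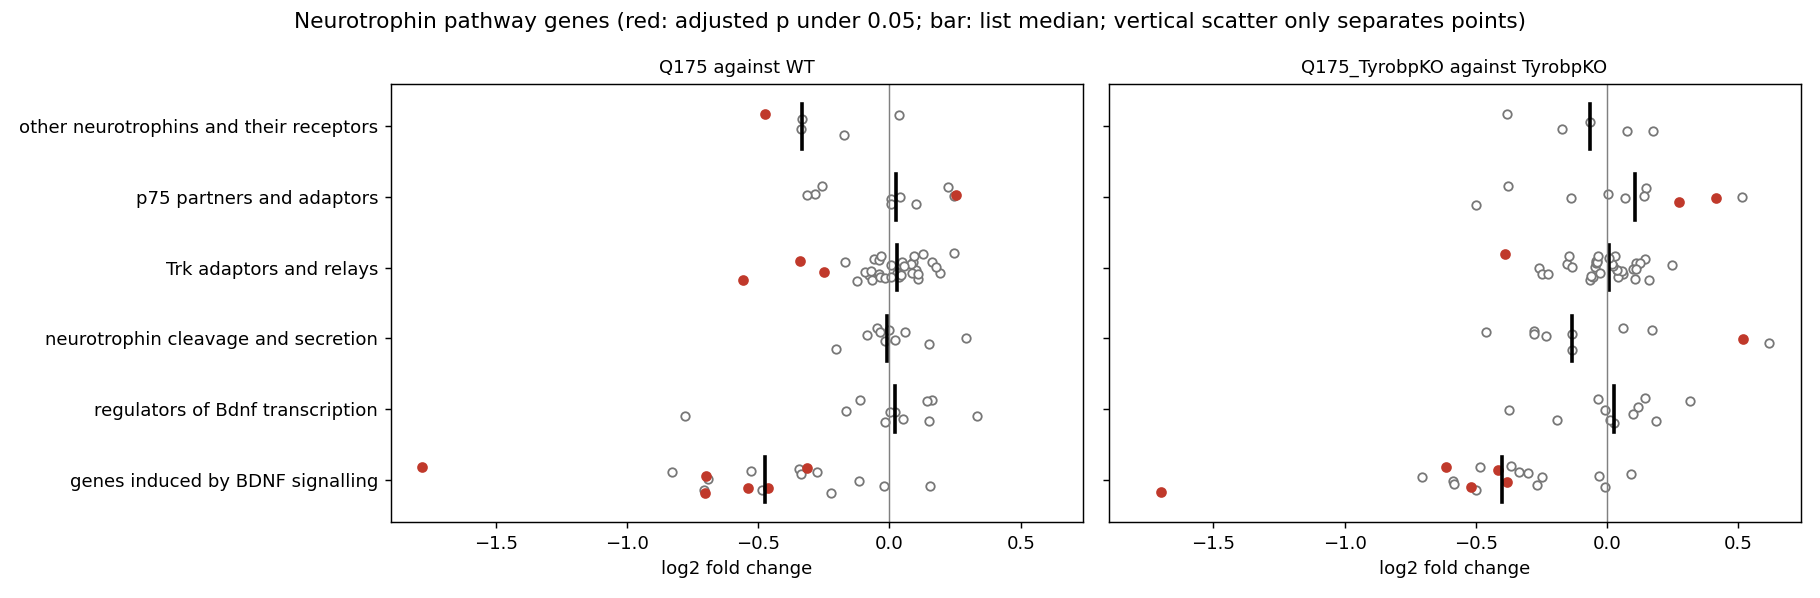
Log2 fold change (horizontal axis) of each tested gene of 6 neurotrophin lists in both Q175 contrasts. Red points have an adjusted p under 0.05 and black bars are list medians. The list of genes induced by BDNF signalling has its median at -0.47 and -0.40, and the relay list at 0.03 and 0.01.

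The genes most like each member across 24 libraries, in log2 CPM after removal of genotype and sex means, differed between members. Bdnf was most like Tmem178 (Pearson's r 0.971), Mapk11 (0.969) and Ipcef1 (0.965), and Slc17a7 was most like Tbr1 (0.996), a transcription factor of deep cortical neurons. Sorcs2 was most like Actn2 (0.967), Bcl11b (0.953), a transcription factor of striatal projection neurons, and Bcr (0.948). Ntrk3 was most like Celf1 (0.930) and Ngfr most like Sparc (0.860), Sall2 (0.852) and Timp3 (0.841). The nearest neighbour was Fam135b (0.835) for Ntrk2 and Mtmr12 (0.863) for Sort1. Between members, the r of Bdnf was -0.723 with Ngfr, -0.627 with Sorcs2 and 0.581 with Sort1, and that of Ntrk3 with Sorcs2 was 0.688. These points share their library and its cortical content, and the values are descriptions.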

How the data were processed

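RNA from the striatum of 1 hemisphere was extracted with Trizol and sequenced on an Illumina NovaSeq instrument, per the labels' protocols. The authors deposited raw read counts per gene and a gene length (another quantity, in bases). STAR, featureCounts and DESeq2 are named in the submitters' processing notes, which give the build as GRCh38. The identifiers are mouse, and the 7 members' coordinates equal those of GENCODE M21 (GRCm38). Use of strand is not given in the sources used here, so overlapping genes are uncertain. Such genes held at most 0.894% of a member's reads. The main test was edgeR 4.0.16 (R 4.3.3) quasi-likelihood on the counts with TMM, filterByExpr by genotype, genotype means and sex, all 24 libraries, and Benjamini-Hochberg adjustment over 19667 genes at 0.05. SEs came from the F statistic. Slc17a7 entered as centred log2 CPM with a prior count of 2, and its slope came from that fit. Correlations used 100000 permutations pooled and exact ones within genotypes, on log2(CPM + 0.05). DESeq2 1.42.0 was an alternative. No pair of the 60 same-genotype pairs agreed within sampling noise (chi-square per gene 6.89 to 42.6). P-values measure the spread between animals. The fits were tested on simulated data. Members and lists were chosen with earlier results of these data known. The genes named are the members, Slc17a7, Tyrobp, Htt, up to 3 called genes of smallest p per list and contrast, genes overlapping a member and the 3 most like each member. Egr2, Dusp1, Vgf and Dusp6 were named after their values were seen. A cell type marker list that was also computed is not reported here.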

Additional observations from a re-analysis of the deposited data

Results flagged for a closer look

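Within a genotype, 3 of 32 sets of 6 values (7 members and Slc17a7 in 4 genotypes) held a library far from the others by Dixon's criterion, which chance meets in about 1 of 20 sets. Sort1 in WT replicate 4 was at 512 CPM, under the next WT library at 557 CPM, and this was the WT library with the least Slc17a7 (25.7 CPM). Ntf3 was at 0.324 CPM in WT replicate 5 (9 reads), above the next at 0.114 CPM. Ntf3 was at 0.467 CPM in TyrobpKO replicate 1 (16 reads), above the next at 0.112 CPM.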

How the results depend on the processing

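None of the 15 called values of members changed sign in 511 refits. With males alone, the number of members called was 0 in Q175_TyrobpKO against TyrobpKO, 3 over both Tyrobp genotypes and 1 for the slope on Slc17a7. With females alone it was 0 in Q175 against WT, 0 in Q175_TyrobpKO against TyrobpKO and 3 over both. Over all genes, males alone had 104 (1153 in the main fit), 1242 (3544) and 1386 (2458) called in the comparisons given for them. Females alone had 187 (1893), 290 (1153) and 1195 (3544). In those edgeR fits with 0 called, 4 members (males) and 4 members in each contrast (females) had an unadjusted p under 0.05. These fits have 3 animals per genotype. Changes of sign were in values that were not called, and the cause was not tested. For Bdnf, the Slc17a7 covariate gave 0.21 in Q175 against WT, -0.28 in Q175_TyrobpKO against Q175 and 0.0400 over both Tyrobp genotypes. The cortical list as covariate gave Bdnf -0.0897 in TyrobpKO against WT and -0.14 in Q175_TyrobpKO against Q175, and Sorcs2 0.0138 in TyrobpKO against WT. Slc17a7 on the linear CPM scale, an alternative added after seeing the data, gave Bdnf -0.23 and -0.36 in the same contrasts and Sorcs2 0.0674 in TyrobpKO against WT. Leaving out the 5 libraries under 100 CPM of Slc17a7, also added after seeing the data, gave Bdnf 0.49 in Q175 against WT, -0.41 in Q175_TyrobpKO against Q175 and 0.0588 over both. Females alone gave Sorcs2 0.15 in TyrobpKO against WT, Ngfr 0.0566 in Q175_TyrobpKO against Q175 and Sorcs2 -0.0467 for the Tyrobp interaction. In males alone these were -0.36, -0.66 and 0.55, with the sign of the main fit, and the Tyrobp interaction of Ntrk3 was 0.32. None of these was called in males, with unadjusted edgeR p of 0.00558, 0.0261, 0.00371 and 0.0092 and adjusted p of 0.151, 0.816, 0.670 and 0.670. With 1 replicate left out, Bdnf ran from -0.74 to 0.31 in Q175 against WT and from -0.0566 to 0.81 in Q175_TyrobpKO against Q175. No paired analysis was possible because replicate numbers follow accession order and only name a library. Depth limits Ntf3 (115 reads) most, then Ngfr (2501 reads) and Bdnf (3415 reads).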
